A study of Mus musculus with 15 samples.

Results

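Jakyak-gamcho-tang (JGT) is a herbal extract made with hot water from equal parts of peony root (Paeoniae radix) and licorice root (Glycyrrhizae radix et rhizoma). It was given to mouse muscle cells at 3 doses, and the step from 100 to 500 µg/mL is described here over all genes with enough counts to test. The 6 libraries of this step, 3 at JGT 500 µg/mL and 3 at JGT 100 µg/mL, were taken by their treatment labels from a series of 15 and not by any measured value. The cells were C2C12, a mouse myoblast line that stops dividing and fuses into multinucleated myotubes when it differentiates. All groups had differentiated for 6 days and were treated for 24 h. The other 9 libraries were 3 non-treated, 3 vehicle (0.1% DMSO) and 3 JGT 20 µg/mL. Sample codes of the non-treated and vehicle libraries begin with A1 and those of all JGT libraries with 3. What the codes stand for is not stated. The titles of all 15 libraries, of both code series, begin with Batch1. A difference between JGT and those groups still cannot be told apart from one between the code series. The upper dose had been set, by calculation, at 80% viability. The JGT stock itself held DMSO, which by dilution comes to 0.1% at JGT 500 and 0.02% at JGT 100; no source here says whether DMSO was then made equal. C2C12 is 1 line grown without nerve or other tissues of a living muscle. Nothing in the labels ties the 3 libraries of a group to separate cultures, so the p-values rest on a spread that may be technical.

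Several systems with well known target genes bear on what follows. The aryl hydrocarbon receptor is a transcription factor that binds flat aromatic compounds, enters the nucleus and switches on enzymes that oxidise and conjugate them, Cyp1a1 being the textbook target. NRF2, held in check by KEAP1 until electrophiles or oxidants modify KEAP1, drives genes that make glutathione, couple it to electrophiles and reduce quinones. Myotubes have left the cell cycle, but a C2C12 culture also holds single cells that did not fuse, and transcripts for DNA replication and mitosis come from cells that still cycle. Serum response factor (SRF) drives actin and smooth muscle contractile genes together with actin-sensing cofactors.

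JGT 500 replicate 2 stood apart from replicates 1 and 3 of its group. On the second principal component, which held 17.1% of the variance, it lay at 13.1 and the other JGT 500 libraries at −4.38 and −6.06. The first component held 54.7%; on it JGT 500 libraries lay at 21.9, 13.6 and 22.5, and none of the 12 others exceeded 0.233. Library pairs were compared gene by gene, and the chi-square averaged over genes, near 1 under sampling noise alone, was 8.50 to 35.7 within JGT 500 and 3.93 to 6.73 within JGT 100, so no library was counted as a copy of another. Totals ran from 27846132 to 33988034 counts at JGT 500 and from 32645341 to 36854199 at JGT 100. The counts that moved most without replicate 2 are given with and without it.

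The dose step changed 2853 of 14461 tested genes, which is 19.7%, at a Benjamini-Hochberg adjusted p below 0.05 in edgeR's quasi-likelihood test. Of these, 1309 genes rose (9.05% of genes tested) and 1544 fell (10.7%). Most changes were small: the median absolute log2 change of the called genes was 0.25, and 47 genes rose (0.325%) and 105 fell (0.726%) by a log2 change of 1 or more. The median over all tested genes was 0.0049. Scaled by library totals alone, 2986 genes were called, 1748 higher and 1238 lower, so the majority direction of the small changes depended on the scaling. The count was 4989 without JGT 500 replicate 2, 1880 without JGT 100 replicate 2, and 1313 when only the 6 libraries were fitted.

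**Figure D1:**
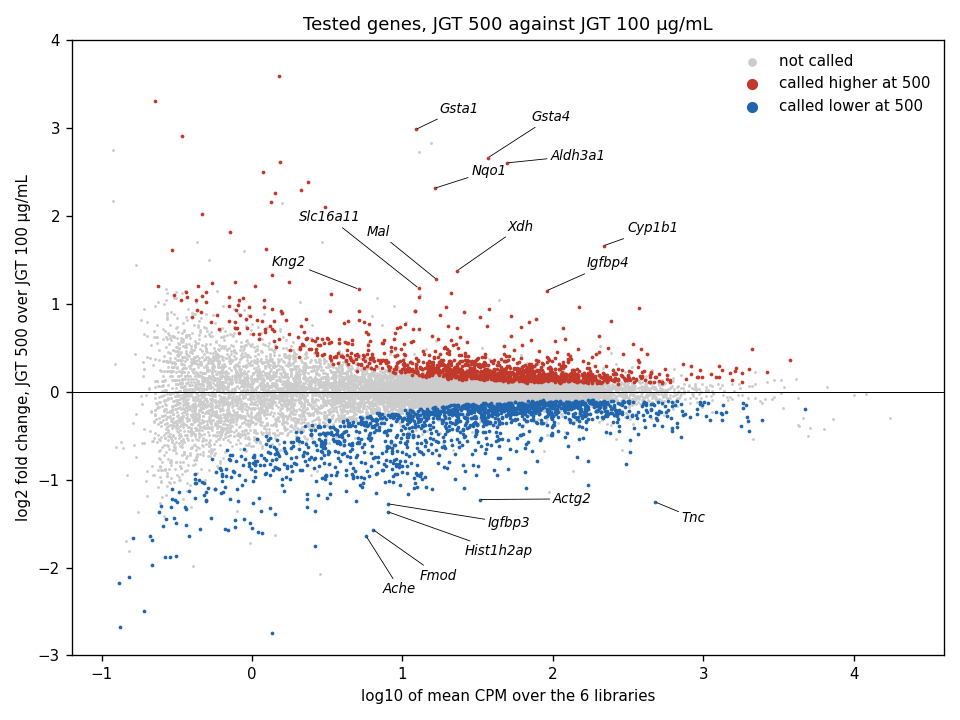
Log2 fold change of JGT 500 over JGT 100 µg/mL (y axis) against log10 of the mean CPM over the 6 libraries (x axis), 1 point per tested gene, red for called higher, blue for called lower and grey for not called. Gsta1, Gsta4, Aldh3a1 and Nqo1 stand above a log2 change of 2 and Ache and Fmod below −1.5; 10 genes, Cyp1a1 among them, lie outside the axes.

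Of the 12 largest rises named by rule, 8 were enzymes that oxidise, reduce or conjugate small molecules: Gsta1, Gsta4, Aldh3a1, Nqo1, Cyp1b1, Xdh, Adh7 and Ugt1a6a. Of all 47 genes that rose by a log2 change of 1 or more, 8 were on a list of aryl hydrocarbon receptor targets and 4 on the list of glutathione S-transferases. Of the 13 tested receptor targets, 10 rose and 2 fell, with a median log2 change of 1.38, where 9.05% of all tested genes rose. Of 37 tested NRF2 targets, 29 rose and 1 fell, with a median of 0.35. The 12 genes with the largest rise held 5 receptor targets: Aldh3a1, Nqo1, Cyp1b1, Xdh and Ugt1a6a. They were named by size among called genes with a mean of at least 5 CPM and groups that did not overlap. Separated groups were thus required of the largest rises and falls and add no evidence for them. Without JGT 500 replicate 2, 10 receptor targets and 28 NRF2 targets rose.

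Cyp1a1, a cytochrome P450 of family 1 on chromosome 9 and the classic receptor target, was close to absent below the highest dose. Its counts summed over 3 libraries were 0 in non-treated, 1 in vehicle, 0 in JGT 20, 2 in JGT 100 and 155 in JGT 500. The ratio of JGT 500 to JGT 100, corrected for depth, was 89.8 with an exact 95% interval of 24.4 to 748, which covers counting error only. Cyp1b1, the family member that oxidises aromatic compounds and steroids, read 106, 107 and 101 CPM at JGT 100 and 336, 334 and 324 CPM at JGT 500. The 2 groups did not overlap, and the log2 change was 1.66 ± 0.0445 (SE, adjusted p = 6.22e-16 in edgeR's test). Vehicle stood at 59.2 ± 2.49 CPM (SD, n = 3), so JGT 100 was already above it. Ahrr, the repressor that the receptor itself induces, rose by a log2 change of 2.26, while Ahr, the receptor, fell by 0.20 on the log2 scale.

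Aldh3a1, an aldehyde dehydrogenase that removes aromatic and lipid aldehydes, read 13.9, 15.2 and 13.02 CPM at JGT 100 and 80.9, 94.7 and 80.2 CPM at JGT 500. Every JGT 500 library was far above every JGT 100 library, a 6.08-fold rise (log2 2.60 ± 0.0677, SE). Nqo1, a quinone reductase that both factors drive, stood at 5.32, 5.58 and 5.54 CPM at JGT 100 and rose to 25.3, 31.3 and 25.3 CPM, or 4.98-fold. Xdh, the xanthine dehydrogenase of purine breakdown, rose from 12.9 ± 0.537 to 33.5 ± 2.21 CPM (SD, n = 3). Ugt1a6a, which joins glucuronic acid to phenols, rose 2.11-fold, with JGT 100 libraries at 8.14 to 8.52 CPM and JGT 500 libraries at 17.1 to 17.8 CPM. Ugt1a6a shares exons with Ugt1a7c, so the authors' counting may have split reads between the pair. The receptor targets that fell were Ahr and the amino acid transporter Slc7a5, which dropped by 0.29 on the log2 scale and also stands in the list of integrated stress response genes.

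The promoters of Cyp1a1 and Cyp1b1, the cytochromes among the listed receptor targets that rose, are shown. The letters are from RefSeq on GRCm38.p6, 250 bases before to 50 after the gene's start, with the core of the receptor's response element (GCGTG, either strand) in capitals.
Cyp1a1 (chr9:57697363-57697662, plus strand): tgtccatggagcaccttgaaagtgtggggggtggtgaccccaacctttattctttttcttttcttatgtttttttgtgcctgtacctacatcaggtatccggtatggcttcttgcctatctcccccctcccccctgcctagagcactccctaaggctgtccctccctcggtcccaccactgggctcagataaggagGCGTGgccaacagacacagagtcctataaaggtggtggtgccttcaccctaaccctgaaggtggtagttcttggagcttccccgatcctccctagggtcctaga
Cyp1b1 (chr17:79715012-79715311, minus strand): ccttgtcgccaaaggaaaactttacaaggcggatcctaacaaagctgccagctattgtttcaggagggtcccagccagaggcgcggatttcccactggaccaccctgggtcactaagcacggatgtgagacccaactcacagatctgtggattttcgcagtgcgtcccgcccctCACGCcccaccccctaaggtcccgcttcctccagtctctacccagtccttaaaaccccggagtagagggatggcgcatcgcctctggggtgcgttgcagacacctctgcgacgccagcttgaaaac
Each window holds 1 core, in Cyp1b1 on the strand opposite to the one printed. The core was found in 5 of 9 receptor targets with a promoter in the table (55.6%) and in 55.6% of 10139 tested genes with one, so its presence does not set these promoters apart. It was found in 35.2% of all 27025 promoters.

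Of 19 tested glutathione S-transferases, which couple glutathione to electrophiles, 9 rose, 0 fell and 10 were not called, where 9.05% of all tested genes rose. The median log2 change was 0.48, and 1 fell without JGT 500 replicate 2. Gsta1 read 2.46, 2.97 and 2.81 CPM at JGT 100 and 22.5, 24.4 and 18.6 CPM at JGT 500. Gsta4, which favours the lipid aldehyde hydroxynonenal, read 10.3, 10.5 and 9.60 CPM at JGT 100 and 67.2, 58.2 and 67.1 CPM at JGT 500. Neither gene's groups came near each other, and the rises were 7.92-fold and 6.34-fold. Gsta2 rose from 0.228 to 2.80 CPM and Gstm1 from 55.5 to 98.5 CPM. Gsta1 and Gsta2 are near-identical copies, so how reads were divided between them is uncertain. The alpha class genes Gsta1 and Gsta4 lie on chromosome 9, at 78230656 to 78242684 and 78182774 to 78209349 (GRCm38, GENCODE M21).

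The other NRF2 targets moved far less than these. Pgd, an enzyme of the pentose phosphate pathway that supplies NADPH, rose from 159 to 247 CPM (log2 0.63), with its JGT 100 libraries at 156, 163 and 159 CPM and its JGT 500 libraries at 237, 254 and 251 CPM. Hmox1, which breaks down heme, read 67.4, 70.4 and 66.5 CPM at JGT 100 and 83.9, 98.7 and 78.9 CPM at JGT 500 (log2 0.36 ± 0.0745, SE, adjusted p = 0.00301 in edgeR's test). Gclm, a subunit of the enzyme that starts glutathione synthesis, rose by a log2 change of 0.25, with groups that did not overlap. Akr1b8, an aldo-keto reductase, was the one listed target called lower, at a log2 change of −0.14 (66.3 to 73.0 CPM at JGT 500 against 74.4 to 76.2 CPM at JGT 100). No listed target was called lower without JGT 100 replicate 2 or 3 or JGT 500 replicate 1 or 3, in the 6-library fit with or without a replicate block, by limma-voom or with library totals as scaling, and 2 were without JGT 500 replicate 2. Gclm shares exon positions with a tested gene on the opposite strand, and with no strand setting stated for the counting, their reads cannot be told apart. The core of the NRF2 element (TGACNNNGC, either strand) was found in 8 of 30 target promoters (26.7%), against 17.1% of tested genes. It stood in 19.2% of the promoters of genes that rose and 18.1% of those of genes that fell. Of the 12 largest rises, 9 had a promoter in the table and 0 held the core, Nqo1 and Gsta1 among them.

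Aldehyde and ketone clearing enzymes gave 10 rises and 3 falls among 26 tested, where 9.05% of all tested genes rose and 10.7% fell. Adh7, an alcohol dehydrogenase that also oxidises retinol, read 13.2 CPM in each JGT 100 library and 29.6, 27.2 and 29.6 CPM at JGT 500. Aldh3b1 rose by 0.44 and Akr1c14 by 0.77 on the log2 scale. Among the rest of the 12 largest rises, Igfbp4, which binds insulin-like growth factors, went from 57.9, 53.6 and 57.7 CPM to 132, 114 and 130 CPM. Mal, a membrane raft proteolipid, rose 2.43-fold, Slc16a11, of the monocarboxylate transporter family, 2.27-fold, and Kng2, a kininogen, 2.25-fold. In all of these the JGT 500 libraries lay above the JGT 100 libraries, as the naming rule required. Every one of the 24 largest rises and falls kept its call and direction in each alternative fit, 312 values in all.

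**Figure D2:**
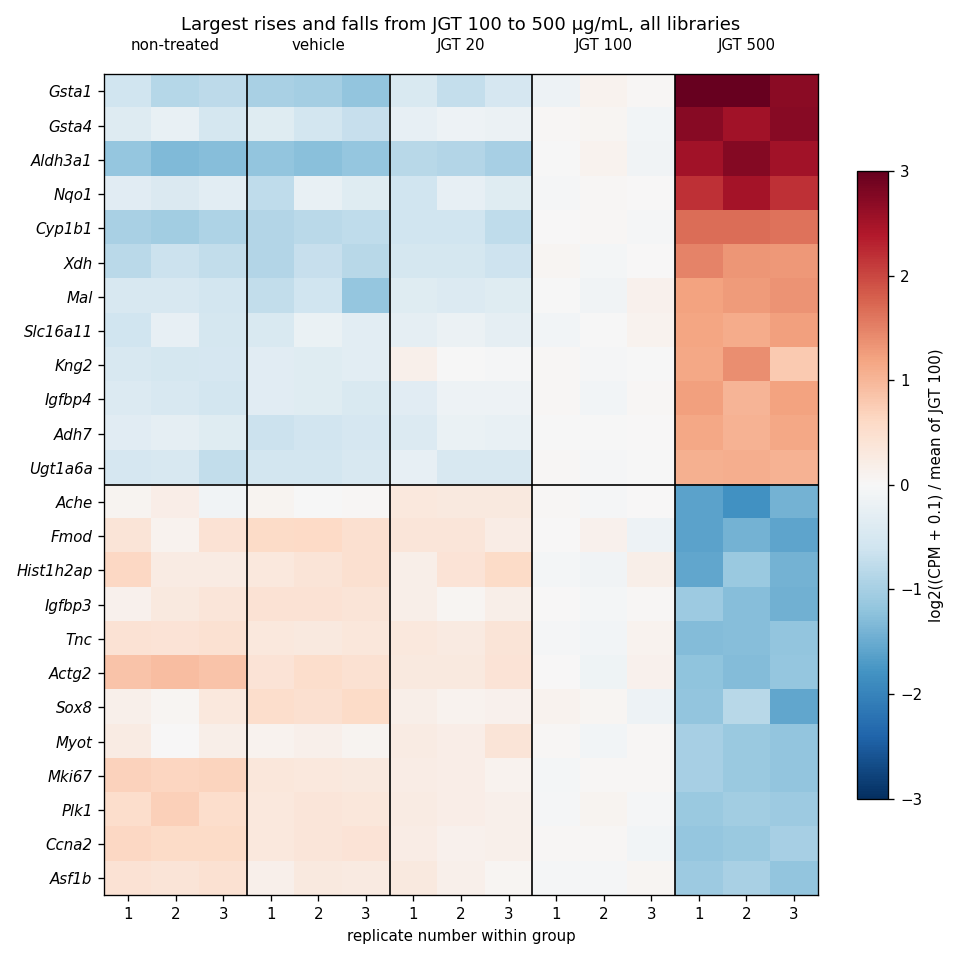
Heat map of the 12 largest rises and 12 largest falls from JGT 100 to 500 µg/mL (rows) in all 15 libraries (columns, replicate numbers under each group), coloured by log2 of CPM plus 0.1 relative to the JGT 100 mean; the colour scale ends at 3 in either direction. At JGT 500 the rises are strongest in Gsta1, Gsta4, Aldh3a1 and Nqo1, and Actg2 and Mki67 are also higher in non-treated than in vehicle libraries.

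Genes of mitosis fell. All 59 tested mitosis genes were called lower at 500 µg/mL, or 58 in the 6-library fit and by limma-voom, with log2 changes from −1.24 (Troap) to −0.18 (Smc4) and a median of −0.88, where 10.7% of all tested genes fell. Summed over the list, the level was 1180, 1194 and 1177 CPM at JGT 100 and 686, 684 and 687 CPM at JGT 500. The 3 JGT 500 libraries, replicate 2 included, were thus nearly alike. The list median of each library, relative to the JGT 100 mean, was −0.89, −0.87 and −0.83 at JGT 500, 0.16 to 0.21 at JGT 20, 0.30 to 0.34 in vehicle and 0.53 to 0.57 in non-treated libraries. In bulk samples such as these, fewer cycling cells and less of each RNA per cell cannot be told apart.

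Mki67, which codes for the Ki-67 antigen of cycling cells, read 86.6, 91.5 and 92.0 CPM at JGT 100 and 45.1, 41.8 and 39.4 CPM at JGT 500. All JGT 500 libraries lay well below all JGT 100 libraries (log2 −1.10 ± 0.0459, SE, adjusted p = 8.86e-13 in edgeR's test). Top2a, the topoisomerase that untangles sister chromatids, read 65.1, 64.0 and 65.0 CPM and then 36.3, 33.2 and 36.4 CPM. Ccna2, cyclin A2, fell from 34.8 ± 1.74 to 16.3 ± 0.851 CPM and Plk1, a kinase of mitotic entry, from 16.1 ± 0.713 to 7.55 ± 0.189 CPM (SD, n = 3). Anln, anillin of the cleavage furrow, fell from 52.5 to 28.4 CPM. Ccnb1, cyclin B1, read 17.2, 17.8 and 15.7 CPM at JGT 100 and 7.84, 8.85 and 9.63 CPM at JGT 500. Ccna2 overlaps exons of Exosc9 on the opposite strand. In each of these genes the groups were apart.

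Vehicle alone lowered part of the same list, and since DMSO may rise with the dose, that effect is given here. Between vehicle and non-treated libraries, which share no library with the dose step, 189 genes were called (1.31% of those tested), and 21 of the 59 mitosis genes were among its falls, which took 0.754% of genes tested, with a list median of −0.23. That comparison was unsteady: leaving out 1 of its libraries gave 69, 88 and 51 genes (non-treated replicates 1, 2 and 3) or 36, 43 and 52 (vehicle replicates 1, 2 and 3), and limma-voom gave 781. Mki67 fell by 0.34 on the log2 scale with vehicle (adjusted p = 0.000911). A test of the dose step minus the vehicle effect, added after the fall with vehicle was seen, called 55 of the 59 lower, with a median difference of −0.62. It called 1950 genes in all (13.5% of those tested), 870 higher and 1080 lower. Of the 189 genes called for vehicle, 37.04% were called in the same direction for the dose step and 20.11% in the opposite one; the same-direction genes were 2.454% of those called for the dose step. The part of DMSO in the dose step itself was not tested. Whether the JGT groups carried equal DMSO is not stated, and vehicle libraries carry another code series than JGT libraries.

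Genes of DNA replication fell less deeply. Of 46 tested, 32 fell and 0 rose, with a median of −0.37, where 10.7% of all tested genes fell. Mcm5, a subunit of the replicative helicase, read 15.1, 16.8 and 17.02 CPM at JGT 100 and 8.08, 8.44 and 7.34 CPM at JGT 500. Uhrf1, which carries DNA methylation to new strands, fell by 0.92, E2f8, a repressor of the E2F family, by 0.69, and Pole, the leading strand polymerase, by 0.73 on the log2 scale. Asf1b, a chaperone that hands histones to new chromatin, fell from 19.5 ± 0.830 to 9.20 ± 0.621 CPM. Hist1h2ap, a histone H2A gene with near-identical copies whose reads may be shared, fell by 1.37. Vehicle lowered 4 of the 46, and the dose step exceeded the vehicle effect in 15.

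Among cell cycle brakes and D cyclins, Ccnd1, cyclin D1, fell from 24.3 to 13.5 CPM, and Ccnd2 and Rbl1 fell by 0.34 and 0.35 on the log2 scale. Gas1, a growth arrest gene, rose from 95.5 to 145 CPM; vehicle raised it too, by 0.32. Cdkn1a, which codes for the inhibitor p21, read 1740.0, 1729 and 1756 CPM at JGT 100 and 1909, 1828 and 1908 CPM at JGT 500. Its log2 change was 0.11 (adjusted p = 0.0327 in edgeR's test), a call that was lost in the fit of the 6 libraries alone (adjusted p = 0.168, or 0.133 with a replicate block) and whichever JGT 100 library, or JGT 500 replicate 1 or 3, was left out (0.0711 to 0.121). In the p53 target list, which holds Cdkn1a, 7 of 22 rose and 1 fell, where 9.05% of all tested genes rose and 10.7% fell. The rises were led by Gadd45a (log2 0.43), Trp53inp1 (0.32), Bax (0.22) and Sesn1 (0.20, not called without JGT 100 replicate 2, adjusted p = 0.07 in edgeR's test). Without JGT 100 replicate 2 or JGT 500 replicate 1 the rises were 4, and without JGT 500 replicate 2 the falls were 3.

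Promoters of 4 genes that fell together are shown with the cell cycle homology region (CHR) in capitals, the element through which the DREAM complex represses cell cycle genes in resting cells. It was searched as TTTGAA or TTCGAA on either strand in the same RefSeq windows (GRCm38.p6).
Mki67 (chr7:135716330-135716629, minus strand): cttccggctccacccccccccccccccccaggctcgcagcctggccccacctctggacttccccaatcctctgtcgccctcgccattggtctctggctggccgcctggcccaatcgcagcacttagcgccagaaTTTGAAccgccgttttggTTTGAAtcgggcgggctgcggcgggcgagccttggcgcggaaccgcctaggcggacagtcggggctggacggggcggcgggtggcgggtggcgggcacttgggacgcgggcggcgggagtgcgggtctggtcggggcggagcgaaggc
Top2a (chr11:99024140-99024439, minus strand): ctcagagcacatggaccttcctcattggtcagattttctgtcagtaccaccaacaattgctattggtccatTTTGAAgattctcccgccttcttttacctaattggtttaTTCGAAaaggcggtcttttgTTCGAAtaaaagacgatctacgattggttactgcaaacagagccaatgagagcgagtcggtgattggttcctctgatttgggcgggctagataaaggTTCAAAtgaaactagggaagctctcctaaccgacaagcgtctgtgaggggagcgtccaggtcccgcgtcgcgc
Plk1 (chr7:122159185-122159484, plus strand): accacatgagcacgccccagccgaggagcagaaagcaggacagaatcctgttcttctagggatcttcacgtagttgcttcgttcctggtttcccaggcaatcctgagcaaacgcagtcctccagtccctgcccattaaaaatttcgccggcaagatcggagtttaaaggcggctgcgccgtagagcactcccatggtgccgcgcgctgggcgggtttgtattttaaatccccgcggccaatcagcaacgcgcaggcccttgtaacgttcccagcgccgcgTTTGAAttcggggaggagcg
Asf1b (chr8:83955444-83955743, plus strand): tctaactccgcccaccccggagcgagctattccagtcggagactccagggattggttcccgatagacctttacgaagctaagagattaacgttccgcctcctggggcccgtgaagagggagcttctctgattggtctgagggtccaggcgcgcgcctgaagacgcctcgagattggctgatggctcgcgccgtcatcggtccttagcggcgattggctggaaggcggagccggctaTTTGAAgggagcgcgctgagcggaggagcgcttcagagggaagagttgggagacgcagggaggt
Mki67 holds 2 such sites, Top2a 4, Plk1 1 and Asf1b 1. Of 48 mitosis genes with a promoter in the table, 36 hold the element (75.0%), against 16.2% of tested genes with a promoter and 21.7% of all promoters. It stands in 20.4% of the promoters of genes that fell and 14.9% of those of genes that rose. Ccnb1 holds none in its window. A set of E2F sites (TTTGGCGC, TTTCCCGC, TTTCGCGC or TTTGCCGC, either strand) was found in 15 of 37 replication gene promoters (40.5%), 4.5% of tested genes and 2.6% of all promoters. The lists are groups of cell cycle genes in which such sites are known to be common, so the shares describe the genes and not the treatment.

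**Figure D3:**
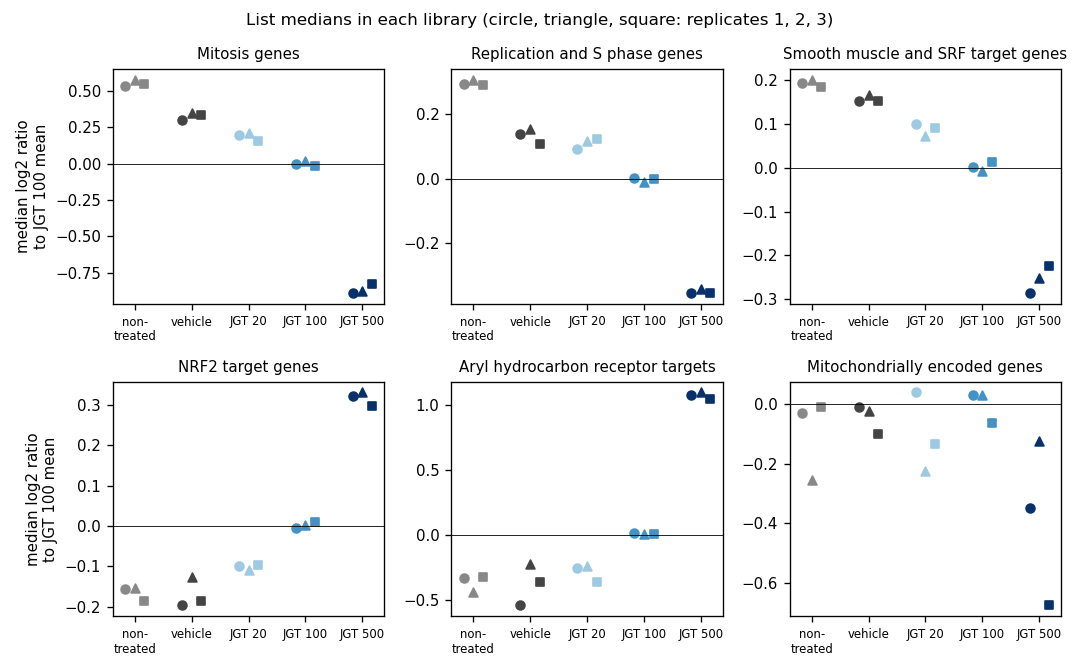
Median log2 ratio to the JGT 100 mean over the members of 6 gene lists with a mean of at least 5 CPM (y axis), 1 point per library, by group (x axis); circle, triangle and square are replicates 1, 2 and 3. Mitosis genes fall from 0.53 to 0.57 in non-treated libraries to between −0.89 and −0.83 at JGT 500, while mitochondrially encoded genes spread from −0.68 to −0.12 within JGT 500.

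Actin and smooth muscle genes that SRF drives also fell. Of 23 tested, 15 fell and 0 rose, with a median of −0.26, where 10.7% of all tested genes fell. Without JGT 500 replicate 2 the counts were 15 and 1. Tagln, the actin-binding transgelin, read 236, 225 and 236 CPM at JGT 100 and 113, 105 and 116 CPM at JGT 500. Actg2, smooth muscle gamma actin, read 45.8, 41.7 and 49.6 CPM and then 19.7, 18.6 and 20.4 CPM. Neither gene's groups overlapped, and the log2 changes were −1.06 and −1.23. Myl9, a myosin light chain, fell by 0.79 and Acta2, smooth muscle alpha actin, by 0.45. Vehicle lowered 3 of the list, Tagln, Actg2 and Myl9, and the test of the dose step minus the vehicle effect called 11 of the 23 lower. Tagln overlaps exons of Pcsk7 on the opposite strand.

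Genes of the extracellular matrix changed in both directions, with more falls than rises. Of 46 matricellular and matrix genes, 24 fell and 9 rose, and of 26 collagens and their processing enzymes 13 fell and 4 rose. The shares over all tested genes were 10.7% falling and 9.05% rising. Tnc, the matricellular protein tenascin C, read 661, 637 and 729 CPM at JGT 100 and 273, 280 and 298 CPM at JGT 500. The groups were far apart, with a log2 change of −1.25 ± 0.0462 (SE, adjusted p = 1e-13 in edgeR's test). Fmod, fibromodulin, which binds collagen fibrils, fell from 9.60, 10.4 and 8.49 CPM to 3.04, 3.46 and 3.10 CPM. Timp3, an inhibitor of metalloproteinases, fell by 0.55, while Nid2, nidogen of the basement membrane, rose by 0.49. Among collagens Col6a3 fell from 389 to 220 CPM, Col8a1 by 0.78, Col6a2 by 0.47 and Col18a1 by 0.64 on the log2 scale. The collagen rises were 1 without JGT 100 replicate 2 or JGT 500 replicate 1, and 2 without JGT 100 replicate 1 or JGT 500 replicate 3. Tnc and Timp3 each share exon positions with a gene on the opposite strand.

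Muscle structural genes changed in part. Of 59 sarcomere genes, 15 fell and 3 rose, with a median of −0.07, so most members did not pass the test. Among all tested genes 10.7% fell and 9.05% rose. Myh4, the fast IIb myosin heavy chain, read 393, 410 and 403 CPM at JGT 100 and 260, 236 and 251 CPM at JGT 500 (log2 −0.69). Myot, myotilin of the Z-disc, fell from 21.9, 20.4 and 22.2 CPM to 10.7, 9.93 and 9.45 CPM. Mybpc1, a myosin-binding protein of slow fibres, fell by 0.91 and Mylk2, the kinase of skeletal myosin light chain, by 0.62. Myh7, the slow myosin, read 169, 166 and 172 CPM and then 134, 114 and 138 CPM (log2 −0.39). In these genes the groups did not overlap. Without JGT 500 replicate 2 the list held 16 falls and 7 rises, and without JGT 500 replicate 3 it held 18 falls and 0 rises; the rises were also 0 without JGT 500 replicate 1 or JGT 100 replicate 1 or 2, and 1 without JGT 100 replicate 3.

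The most abundant muscle transcripts shifted little, and some rest on replicate 2. Acta1, skeletal alpha actin, read 4992, 5053 and 5179 CPM at JGT 100 and 4077, 5037 and 4151 CPM at JGT 500. Replicate 2 stayed at the JGT 100 level, and the log2 change of −0.20 (adjusted p = 0.0222 in edgeR's test) was not called without JGT 500 replicate 1 (0.127), JGT 500 replicate 3 (0.102), JGT 100 replicate 2 (0.0563) or JGT 100 replicate 3 (0.069), nor in the fit of the 6 libraries (0.151, or 0.0691 with a replicate block). Myh3, the embryonic myosin, read 3455, 3661 and 3782 CPM and then 3309, 2773 and 3529 CPM, with groups that overlap (log2 −0.18, adjusted p = 0.0625). It was called without JGT 500 replicate 3 (adjusted p = 0.00737). Des, desmin, read 3938, 3728 and 4153 CPM at JGT 100 and 4691, 3573 and 4777 CPM at JGT 500, and was called higher only when replicate 2 was left out (log2 0.26, adjusted p = 0.000637). Ckm, muscle creatine kinase, fell from 318 ± 9.94 to 234 ± 13.1 CPM (log2 −0.44), with an antisense gene over its exons.

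Regulators of the myogenic program split, with 5 of 22 rising and 5 falling, where 9.05% of all tested genes rose and 10.7% fell. The counts were 3 and 3 whichever JGT 100 library was left out, and 3 rose without JGT 500 replicate 1. Myog, myogenin, which drives terminal differentiation, read 875, 859.6 and 834 CPM at JGT 100 and 982, 992 and 922 CPM at JGT 500 (log2 0.17, adjusted p = 0.00168), a call lost in the 6-library fit (0.0514). Myod1 differed by −0.06 on the log2 scale (adjusted p = 0.282), with JGT 100 at 170 to 174 CPM and JGT 500 at 157 to 172 CPM. Myf6, a late myogenic factor, fell from 1.73 to 0.895 CPM, Mef2a by 0.20 on the log2 scale, and Erbb3, a neuregulin receptor, rose by 0.19. Markers of undifferentiated and reserve cells gave 9 falls and 1 rise among 22, with Vcam1, Heyl and Cd34 falling by 0.50, 0.75 and 0.48 and Gas1 rising, and 12 falls and 2 rises without JGT 500 replicate 2. Notch pathway genes, 7 of which fell and 1 of which rose among 17, share Heyl, Notch1 and Notch3 with that list; Dll1, a ligand, fell by 0.45.

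At the neuromuscular junction, Ache showed the largest fall of all genes named by the rule. Ache codes for acetylcholinesterase, which ends transmission by splitting acetylcholine, and lies on chromosome 5 at 137287519 to 137294466 (GRCm38, GENCODE M21). It read 8.86, 8.49 and 8.72 CPM at JGT 100 and 2.77, 2.40 and 3.21 CPM at JGT 500, with a log2 change of −1.64 ± 0.101 (SE, adjusted p = 3.03e-10 in edgeR's test). Vehicle was at 8.95 ± 0.296 CPM and non-treated at 9.12 CPM, so the lower level was seen at JGT 500 and not in the other groups. Chrne, the receptor subunit of adult junctions, fell from 3.34 to 1.33 CPM, Nrg1, neuregulin, by 0.40, and Colq, the collagen tail that anchors Ache, by 0.39 on the log2 scale. The list gave 7 falls and 4 rises among 22 tested, where 10.7% of all tested genes fell and 9.05% rose. It gave 12 falls without JGT 500 replicate 2 and 2 rises without JGT 500 replicate 3.

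Growth factor genes of muscle moved in opposed directions. In the insulin-like growth factor system, 6 of 17 rose and 5 fell: Igfbp4 rose 2.22-fold, while Igfbp3 read 11.54, 10.99 and 11.6 CPM at JGT 100 and 5.31, 4.63 and 4.13 CPM at JGT 500. Igf1 itself fell from 40.8 to 22.8 CPM and Irs1, which relays receptor signals, from 98.6 to 68.4 CPM. Both had JGT 500 libraries below all JGT 100 libraries. Of 31 genes of the TGF-beta and BMP families, 11 fell and 4 rose, or 2 rose without JGT 500 replicate 1. For both lists, the shares over all tested genes were 10.7% falling and 9.05% rising. Inhbb, the activin B subunit, read 101, 98.5 and 103 CPM and then 197, 196 and 197 CPM, a 1.95-fold rise with almost no spread. Grem1, an extracellular antagonist of BMPs, read 257, 256 and 255 CPM at JGT 100 and 476, 539.6 and 469 CPM at JGT 500; vehicle had lowered it by 0.35 on the log2 scale. Fstl1, follistatin-like, and Tgfb2 fell by 0.41 and 0.48.

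Of 24 tested genes that mark muscle atrophy, 7 rose, 2 fell and 15 were not called, where 9.05% of all tested genes rose and 10.7% fell. With the 6 libraries alone 4 rose and 1 fell (4 and 3 with a replicate block), and without JGT 500 replicate 2 the counts were 9 rises and 4 falls. Fbxo40, a muscle ubiquitin ligase subunit that targets Irs1, read 52.5, 59.6 and 59.3 CPM at JGT 100 and 78.7, 89.7 and 90.3 CPM at JGT 500 (log2 0.59). Fbxo32, atrogin-1, read 109, 106 and 110.4 CPM and then 131, 128 and 138 CPM (log2 0.29), and Trim63, MuRF1, 30.4 to 30.6 CPM and then 34.6, 37.7 and 42.1 CPM (log2 0.32). Neither ligase's groups overlapped. Asb2, another ligase subunit, fell by 0.60, and Gadd45a, a stress gene, rose by 0.43.

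Of 27 autophagy genes 14 rose and 0 fell, of 34 lysosome genes 10 rose and 0 fell, and of 33 proteasome genes 12 rose and 0 fell, where 9.05% of all tested genes rose. The other 13, 24 and 21 members were not called, and the counts depended on the libraries used. Without JGT 500 replicate 2 the lists gave 16, 12 and 17 rises and 2, 3 and 1 falls. Bnip3, a receptor for removing mitochondria, rose from 42.0 to 55.5 CPM, and Sqstm1, the cargo receptor p62 and an NRF2 target, from 657 to 818 CPM. Nbr1 and Map1lc3b, a receptor and the membrane marker LC3B, rose by 0.21 on the log2 scale. Among lysosomal genes Ctsl and Psap, a protease and a lipid-binding precursor, rose by 0.26 and 0.29, and Ctsd and Ctsz by 0.17 and 0.18. Psma5, Psma7, Psmd4 and Psmd2, proteasome subunits, rose by 0.15 to 0.21, Psmd2 with an adjusted p of 0.0509 without JGT 500 replicate 3. The 6-library fit called 5 autophagy, 3 lysosome and 2 proteasome genes, all higher, and 8, 5 and 10 with a replicate block. Proteasome rises were 3 without JGT 500 replicate 3, 5 and 7 without JGT 100 replicates 1 and 2, and 7 without JGT 500 replicate 1; the lowest count from leaving out a library was 9 for autophagy (JGT 100 replicate 1, JGT 100 replicate 2 or JGT 500 replicate 1) and 6 for lysosome genes (JGT 100 replicate 2).

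Genes of the integrated stress response and immediate early genes fell more often than they rose. In the integrated stress response, the program that ATF4 drives, 12 of 27 fell and 1 rose, and the falls were 7 without JGT 500 replicate 1. Among all tested genes 10.7% fell and 9.05% rose. Aldh1l2 and Shmt2, mitochondrial enzymes of one-carbon metabolism, fell by 0.60 and 0.35, and Slc7a5 and Slc7a1, amino acid transporters, by 0.29 and 0.24. Ddit3, the factor CHOP, read 14.6, 13.7 and 12.7 CPM and then 11.3, 12.1 and 11.8 CPM (log2 −0.22, adjusted p = 0.0163), a call lost without JGT 100 replicate 1 (0.0845) or JGT 500 replicate 1 (0.0636) and in the 6-library fit (0.0962, or 0.0823 with a replicate block). Atf3 differed by −0.14 on the log2 scale (adjusted p = 0.377). Of 25 immediate early genes 10 fell and 2 rose. Egr1, a growth factor response factor, read 176, 178 and 181 CPM at JGT 100 and 119.8, 138 and 109 CPM at JGT 500, and Klf10, Fosb and Junb fell by 0.38, 0.64 and 0.28. Vehicle had raised Egr1 by 0.31.

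Of 21 chemokine and NF-kB genes, 5 rose and 4 fell, or 3 rose without JGT 500 replicate 1. Among all tested genes 9.05% rose and 10.7% fell. The neutrophil attractants Cxcl1 and Cxcl5 had low counts but clear rises: Cxcl1 went from 0.400, 0.275 and 0.386 CPM to 1.97, 2.02 and 2.05 CPM, and Cxcl5 from 0.769, 0.797 and 0.717 CPM to 3.37, 5.54 and 2.96 CPM. Vcam1, an adhesion molecule, and Csf1, a macrophage growth factor, fell by 0.50 and 0.26. Txnip, which binds thioredoxin and responds to glucose, did not pass the test in this step, at 53.5 ± 1.83 CPM for JGT 100 and 53.3 ± 4.14 CPM for JGT 500 (SD, n = 3). Vehicle stood at 75.9 CPM and JGT 20 at 55.8 CPM, but vehicle libraries carry another code series than JGT libraries. Nfatc2, chosen after its values were seen, is a calcium-dependent transcription factor of muscle growth and had the deepest fall among called genes with a mean above 1 CPM, from 2.40, 1.98 and 2.67 CPM to 0.300, 0.293 and 0.459 CPM (log2 −2.75).

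**Figure D4:**
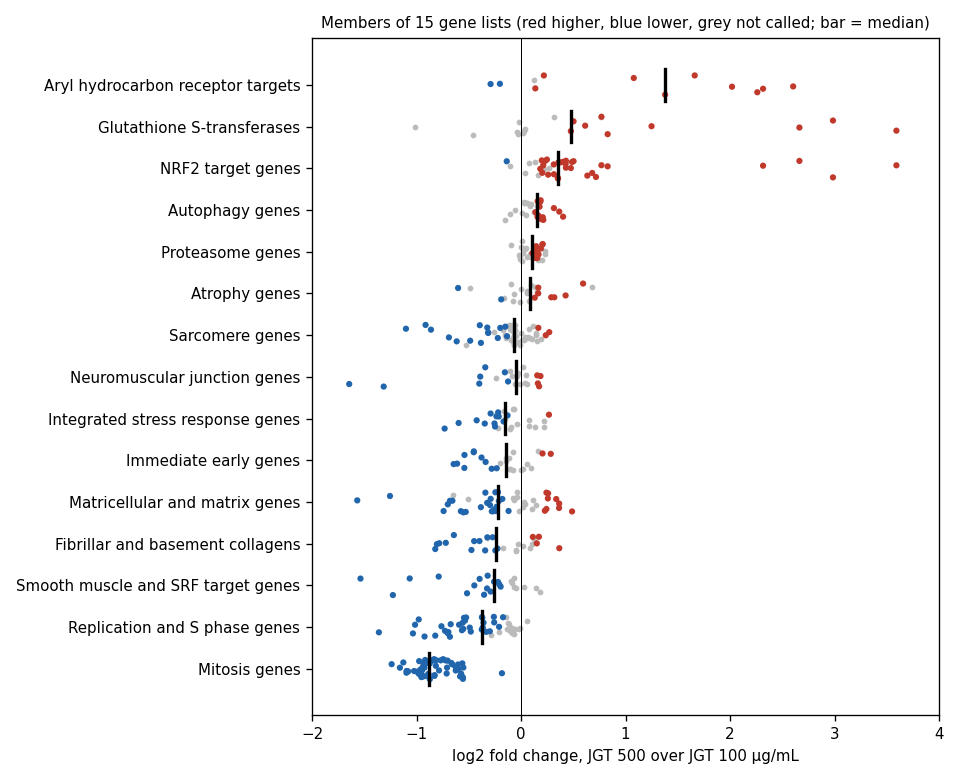
Log2 fold change of JGT 500 over JGT 100 µg/mL (x axis) for each tested member of 15 gene lists (rows), red for called higher, blue for called lower, grey for not called, with a black bar at the list median. Receptor targets have a median of 1.38 and mitosis genes of −0.88; sarcomere genes lie on both sides of 0.

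Mitochondrially encoded transcripts differed between the JGT 500 libraries. Their share of counts was 5.24%, 5.32% and 4.98% at JGT 100 and 4.27%, 4.94% and 3.47% at JGT 500. The 13 genes had a median log2 change of −0.38, yet 0 were called (edgeR, adjusted over all genes), with 8 at an unadjusted p below 0.05. Without JGT 500 replicate 2, which held the highest share of its group, 9 were called lower, and DESeq2 called 3. With a replicate block in the 6 libraries 4 were called lower and 1 higher. Of 52 cytosolic ribosomal protein genes 1 fell, Rpsa, and without that library 22 fell and 2 rose; the 6-library fit called 0, or 3 lower with the block.

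Markers of the labelled cell type were present in every library, and defining markers of adipocytes and of bone and cartilage had few or no counts. Mki67, which marks cycling cells, was not near 0 (39.4 to 92.0 CPM over the 6 libraries). Among the myotube markers, the titin gene Ttn stood between 3978 and 4469 CPM over the 6 libraries, and Tnnt3, fast troponin T, between 1014 and 1139 CPM; neither passed the test (adjusted p = 0.418 and 0.454). Of 15 adipocyte markers only 7 had enough counts to test, and 3 rose and 1 fell, where 9.05% of all tested genes rose and 10.7% fell. The defining Adipoq and Plin1 had 0 counts in each of the 6 libraries and Fabp4 had 1 to 5. The summed level of the tested adipocyte markers was 78.8 to 81.2 CPM at JGT 100 and 115 to 128 CPM at JGT 500, most of it Lpl, a lipase of fat and muscle, which rose from 45.8 to 76.5 CPM. Cebpa rose by 0.53, Pparg by 0.24, a call lost whichever of the 6 libraries was left out (adjusted p from 0.0655 to 0.169) and with a replicate block (0.0653), and Agt fell by 0.91, a call lost without JGT 100 replicate 2 or JGT 500 replicate 3. Bone and cartilage markers gave 1 rise and 2 falls among 6 tested, with Ibsp at 0 counts and Sp7 at 5 to 16. The summed level of the tested members was not low, at 1322 to 1360 CPM at JGT 100 and 1525 to 1585 CPM at JGT 500. Of 7 tested endothelial, blood and nerve markers 0 were called by edgeR or DESeq2 and 0 had an unadjusted p below 0.05, with summed levels of 49.9 to 57.9 CPM at JGT 100 and 50.6 to 54.2 CPM at JGT 500.

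Whether the upper step acted like the step below it was asked with the test of the difference, since both steps raise the dose 5-fold and share the JGT 100 libraries. The lower step, from 20 to 100 µg/mL, changed 62 genes (0.429% of those tested), 43 higher and 19 lower. The difference between the steps was called for 419 genes (2.9%), 102 with a higher upper step (0.705%) and 317 with a lower one (2.19%). Among mitosis genes 50 of 59 had a lower upper step, among replication genes 11 of 46, and among NRF2 targets 13 of 37 had a higher one. For the receptor targets 6 of 13 were higher and 1 lower. Scaled by library totals, 399 genes were called, with 34.8% higher in place of 24.3%. The count was 2000 without JGT 500 replicate 2, and 242, 202 and 248 without JGT 100 replicates 1, 2 and 3.

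In some genes the steps pointed in opposite directions. Counted were called genes with a mean of at least 5 CPM over the JGT libraries and no clone or predicted-gene symbol. Of these, 35 with a higher upper step and 86 with a lower one had fitted steps of opposite sign. The lower step alone was called in just 1 of the 12 named here, Greb1. Greb1, a gene known for its induction by estrogen, stood at 5.76 ± 0.605 CPM in vehicle, 8.71 CPM at JGT 20, 17.2, 16.9 and 16.96 CPM at JGT 100 and 12.4, 13.6 and 13.2 CPM at JGT 500. The middle dose thus gave the highest level, with no overlap between the JGT 100 and JGT 500 libraries; the lower step was 0.96 (adjusted p = 1.82e-07) and the upper −0.38 (adjusted p = 0.000529, edgeR). Gpd1, a glycerol phosphate dehydrogenase, fell from 10.0, 9.95 and 8.83 CPM to 4.74, 5.74 and 4.94 CPM in the upper step after 9.17 CPM at JGT 20. Pcsk6, a proprotein convertase, read 10.7, 11.1 and 10.2 CPM and then 5.71, 6.83 and 7.06 CPM, and Pacsin1, a membrane-bending protein, fell from 25.97 to 14.96 CPM. Angpt4, an angiopoietin, and Fam107a fell by 0.66 and 0.52 on the log2 scale.

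The 6 genes with a higher upper step were less settled. Slc40a1, the iron exporter ferroportin, read 22.1, 20.1 and 22.9 CPM at JGT 100 and 31.4, 30.4 and 34.5 CPM at JGT 500, after 23.4 CPM at JGT 20, and its step difference of 0.67 (adjusted p = 0.00179 in edgeR's test) was called whichever library was left out. Foxq1, a forkhead factor, rose from 6.88 to 10.9 CPM and Ak4, a mitochondrial adenylate kinase, from 5.99 to 9.01 CPM. Bbs5, of the ciliary BBSome, Itgb5, integrin beta 5, and Gnb4, a G protein subunit, rose by 0.42, 0.54 and 0.41 on the log2 scale. Their step differences lost the call without single libraries: Foxq1 without JGT 100 replicate 1 or 2 (adjusted p = 0.0587 and 0.0838), Ak4 without JGT 100 replicate 3 (0.137) and Gnb4 without JGT 100 replicate 2 (0.0657). Itgb5 lost it without JGT 20 replicate 2 or 3, JGT 100 replicate 1 or 2, or JGT 500 replicate 1 or 3 (0.0608 to 0.175). Bbs5 lost it without JGT 20 replicate 2 or 3, any JGT 100 library, or JGT 500 replicate 1 or 3 (0.0632 to 0.219). Foxq1 shares exon positions with a gene on the opposite strand.

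**Figure D5:**
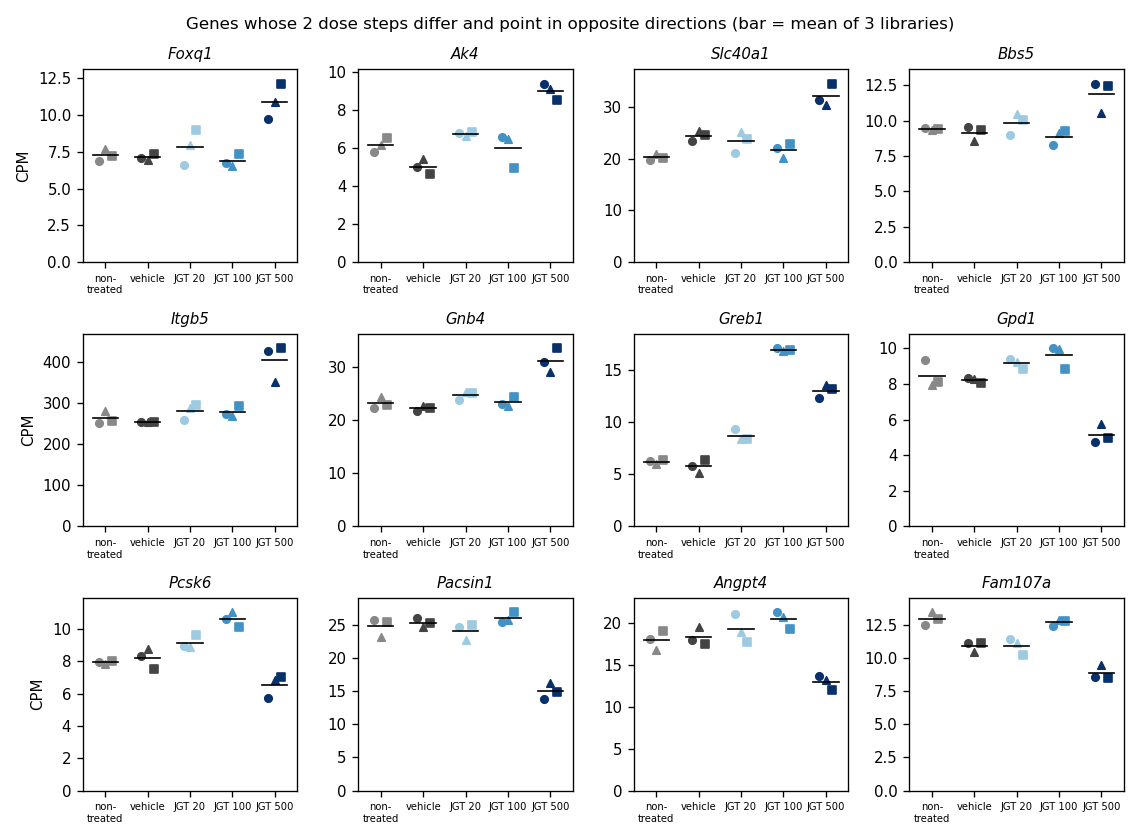
CPM (y axis, from 0) in each library by group (x axis) for the 12 genes named for steps of opposite sign; circle, triangle and square are replicates 1, 2 and 3 and the bar is the mean. Greb1 peaks near 17 CPM at JGT 100, and Gpd1, Pcsk6 and Pacsin1 drop below every other group at JGT 500.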

How the data were processed

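Messenger RNA of C2C12 myotubes was sequenced from 15 libraries, 5 groups of 3, and the 6 libraries of JGT 500 and JGT 100 µg/mL are the subject. The authors deposited estimated counts per gene; per the submitters' processing notes RSEM 1.3.3 and STAR 2.7.3a were used on GRCm38, after Trim Galore 0.6.5. No source names the annotation or strand setting. Expected counts were rounded to whole numbers (9.34% of the deposited values were not whole within 0.005). Totals were 26012844 to 36854199 counts per library, so a gene at 5 CPM rests on over 100 counts and low genes are less precise. Genes were kept by filterByExpr, scaled by TMM and tested with edgeR 4.0.16 (R 4.3.3), robust quasi-likelihood, in 1 fit of all 15 libraries with group as the only term; a gene was called at a Benjamini-Hochberg adjusted p below 0.05 over 14461 genes. CPM values use TMM-scaled totals. Each SE of a log2 change is its absolute value divided by the square root of the test's F, with the spread shared over all 15 libraries. JGT 500 libraries had a voom weight of 0.496 and JGT 100 libraries 1.22, so the SE may be too small for this step. Exact intervals and floors cover counting error only.

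Most genes named in the text were chosen by rule. The rules took the 12 largest rises and 12 largest falls (called, mean of at least 5 CPM over the 6 libraries, groups not overlapping). They also took up to 4 called members per list with the smallest p, and 6 genes each way whose steps have opposite signs. A short list of fixed genes and markers of cell types were named as well. Ahrr, Ahr, Akr1b8, Troap, Smc4 and Nfatc2 fall outside these rules. The members and lists were chosen with earlier results of these data known. Deviations from the group means correlated at 0.169, 0.264 and 0.274 between JGT 100 and JGT 500 libraries of the same replicate number. Between unlike numbers the correlations were −0.292 to −0.00534. The labels do not state a pairing, and the main fit holds no replicate term. Alternatives were DESeq2 1.42.0, limma 3.58.1 (voom with group weights), library totals as scaling, no filter on low counts, the 6 libraries alone, a replicate block, and each library left out in turn. Gene positions are from GENCODE M21, which matched 39311 of 42807 symbols; promoter letters are from RefSeq. The scripts were tested on simulated data in which each gene had the same spread in all groups. Of genes called there, 6.42% were false for the dose step and 4.23% for the step difference. Of log2 changes of 0.5, 79% and 52% were recovered. The wider spread at JGT 500 was not simulated.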

Additional observations from a re-analysis of the deposited data

Results flagged for a closer look

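The difference between the upper dose step (100 to 500 µg/mL) and the lower one (20 to 100 µg/mL) was itself past the threshold, with steps of opposite sign, in 12 genes named by rule. The step difference on the log2 scale, tested with edgeR, was 0.85 for Foxq1, 0.77 for Ak4, 0.67 for Slc40a1, 0.56 for Bbs5, 0.55 for Itgb5 and 0.49 for Gnb4. It was −1.34 for Greb1, −0.96 for Gpd1, −0.92 for Pcsk6, −0.90 for Pacsin1, −0.74 for Angpt4 and −0.73 for Fam107a. Both steps share the JGT 100 libraries, so a high or low level there enters both with opposite sign. The lower step alone passed the threshold for Greb1 among these genes.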

How the results depend on the processing

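The count of genes changed from JGT 100 to 500 µg/mL was 2853 and became 1313 when the 6 libraries were fitted alone, all of them also called in the fit of 15. Leaving out 1 library at a time gave 1880 to 4989 genes, the highest without JGT 500 replicate 2 and the lowest without JGT 100 replicate 2. DESeq2 called 2550, limma-voom 1948 and 2571 were called with no filter. With a replicate block the count was 2731 over 15 libraries and 2002 over 6; over 15 libraries it ended the call of Pparg, and over 6 those of Pparg, Cdkn1a, Acta1, Ddit3, Akr1b8 and Stard4, among genes named in the text whose calls were recomputed. The 6-library fit also ended the calls of Myog, Ctsd, Psmd2, Psmd4, Rpsa, Sesn1 and Agt (adjusted p from 0.0506 to 0.0727). The count of genes whose steps differed, 419, was 252 in the JGT libraries alone, 261 there with the replicate block (which ended the calls of Itgb5, 0.0561, and Bbs5, 0.128), 410 with the block over 15 libraries, and 202 to 2000 with 1 library left out. The vehicle effect, 189 genes, was 319 by DESeq2, 781 by limma-voom, 169 with the replicate block and 36 to 88 with 1 library left out. Same-number correlations of JGT 20 were −0.466, −0.571 and 0.208 with JGT 500, and −0.21, −0.239 and 0.0503 with JGT 100. For JGT 20 the block thus rests on shared numbers only. Of values recomputed for named genes, 2280 of 2443 kept their side of the threshold and direction for the dose step; 4 changed sign, all of Txnip, which was not called: 0.0206 by library totals, and 0.00603, 0.0334 and 0.00734 (range over the 6 left-out libraries −0.0734 to 0.0334) without JGT 100 replicate 1, JGT 500 replicate 2 and JGT 500 replicate 3. Of list counts, 518 of 650 stayed within 1.5 times. The causes were not tested. With 3 libraries a group, and JGT 500 replicate 2 apart, small changes near the threshold are the least secure.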

Other observations

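Counts for some gene groups not described above follow, beside 9.05% of all tested genes that rose and 10.7% that fell from JGT 100 to JGT 500. Of 35 glycolysis and hypoxia genes 12 rose and 3 fell; Pfkl, liver phosphofructokinase, rose by 0.33 on the log2 scale and Eno3, muscle enolase, fell by 0.25. Of 24 tricarboxylic acid cycle genes 1 rose and 1 fell. Among 19 circadian genes 1 rose and 6 fell: Hlf, a clock output factor, went from 0.710 to 3.51 CPM, and Bhlhe40, a repressor, fell by 0.24. Of 36 ribosome biogenesis genes 7 fell and 0 rose, among them Myc, from 38.6 to 32.9 CPM. Of 20 ERK feedback genes 7 fell and 0 rose, with Etv5, an ETS factor, falling by 0.34. Of 24 cholesterol synthesis genes 2 rose and 0 fell: Pmvk, phosphomevalonate kinase, by 0.41 and Stard4, a cholesterol carrier, by 0.19. These 2 are 8.33% of the list, as are the 2 called tricarboxylic acid cycle genes, where 19.7% of all tested genes were called. Stard4 lost its call in the 6-library fit (adjusted p = 0.116, or 0.0693 with a replicate block) and without JGT 100 replicate 1 or 2 or JGT 500 replicate 1 or 3 (0.0559 to 0.143). Without JGT 500 replicate 2 the falls were 6 for glycolysis and hypoxia, and the tricarboxylic acid cycle list gave 6 rises and 5 falls; circadian rises were 3, ribosome biogenesis rises 3 and ERK feedback rises 1. The circadian falls were 2 without JGT 100 replicate 1 or JGT 500 replicate 3, the ribosome biogenesis falls 3 to 8 and the ERK feedback falls 4 to 10 with 1 library left out, both lowest without JGT 100 replicate 2 (ERK feedback also without JGT 500 replicate 3) and highest without JGT 500 replicate 2. Cholesterol synthesis gave 5 rises and 1 fall without JGT 500 replicate 2, and its rises ran from 1 (without JGT 100 replicate 1 or 2, or JGT 500 replicate 3) to 6 (without JGT 500 replicate 1).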
